A study of Mus musculus with 6 samples.

Results

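The 5 genes Cd93, Cd24a, Myb, Sox4 and Lef1 were examined in ATAC-seq peak lists of immature B cells from mouse spleen. They encode surface markers of newly formed, transitional B cells or transcription factors of early B lymphopoiesis. They are 5 of the 21887 protein-coding genes in the gene table, and they were chosen by name, with the measured peaks at their gene ends and within 50 kb of them in the same 6 libraries already known. The peak calls and their ranks are therefore given as a description. ATAC-seq uses the Tn5 transposase to insert sequencing adapters into open DNA, so that a peak marks a stretch of accessible chromatin. The cells were sorted as B220+CD93+. Of the 6 libraries, 3 came from Tcrd-GDL mice given diphtheria toxin (DTx) and 3 from untreated Tcrd-GDL mice. DTx mice had 2 intraperitoneal injections with 48 h between them, each of 15 ng of toxin for every gram the mouse weighed, and the cells were taken on day 8 after the first injection. Mice of this strain, in both groups, carry the toxin's receptor on their γδ T cells, and the comparison asks how the open chromatin of these B cells stands when γδ T cells are depleted. Depletion and other effects of the toxin cannot be told apart in this design. The labels do not say that the libraries of a group came from separate mice, so the spread between them may be technical.

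CD93, a C-type lectin receptor on the cell surface, is carried by immature B cells and lost as they mature, and it was used here to sort the cells. Cd24a encodes heat stable antigen, a small glycoprotein anchored in the membrane by a lipid, whose level is high on immature and transitional B cells and lower on mature follicular ones. MYB, a DNA-binding activator of blood progenitors, SOX4, a factor of the SRY-related HMG box family, and LEF1, an HMG box factor that binds β-catenin in Wnt signalling, are each needed in early B lymphopoiesis in the bone marrow of mice. LEF1 and MYB also act in T cell development. The peak lists show where their genes are accessible in the immature B cells of the spleen.

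A gene-end peak is one that comes within 1 kb of the first or last base of a gene, and the strength of a peak is given as the percentile of its −log10 q among the peaks of its own list. The 3 DTx lists held 44661, 56266 and 60811 peaks and the 3 untreated lists held 36760, 42504 and 56503. Since a longer list alone holds more peaks, every value was also taken in equal-length lists, made of the 36760 top peaks by −log10 q of each list. DTx replicate 1 and untreated replicate 3 have the layout of MACS2's narrow mode and the other 4 lists that of its broad mode, so each group held 1 narrow and 2 broad lists. Every deposited list of both groups had gene-end peaks at 9 or 10 of 10 B cell marker genes, against 51.1% to 57.0% of all genes. Cd3e, Ncr1, Lyz2, Gata1 and Pecam1, defining genes of T, natural killer, myeloid, erythroid and endothelial cells, had none in any list.

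Start-site sequences of Myb, Sox4 and Lef1 are shown because their peaks, described further on, lie over, beside or apart from these stretches. They are the 250 bases before an annotated start site, from RefSeq on GRCm38.p6, printed 5′ to 3′ on the strand of the gene, with the motifs found on either strand in capitals. Of the 5 genes, 3 were in that sequence table. The Myb stretch lies at chr10:21160985-21161234 on the minus strand, that of Sox4 at chr13:28953700-28953949 on the minus strand, and those of Lef1 start sites 1 and 3 at chr3:131110047-131110296 and chr3:131112541-131112790 on the plus strand.
Myb: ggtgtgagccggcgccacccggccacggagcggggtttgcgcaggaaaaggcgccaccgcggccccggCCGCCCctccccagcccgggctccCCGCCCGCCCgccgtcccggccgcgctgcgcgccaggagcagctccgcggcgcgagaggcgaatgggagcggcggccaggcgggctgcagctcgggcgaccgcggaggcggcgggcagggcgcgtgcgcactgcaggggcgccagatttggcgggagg
Sox4: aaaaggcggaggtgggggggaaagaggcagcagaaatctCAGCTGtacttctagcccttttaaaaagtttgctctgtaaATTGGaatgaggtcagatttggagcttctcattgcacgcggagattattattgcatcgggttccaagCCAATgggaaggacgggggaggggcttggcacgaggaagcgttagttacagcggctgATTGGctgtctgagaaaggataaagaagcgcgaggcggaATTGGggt
Lef1, start site 1: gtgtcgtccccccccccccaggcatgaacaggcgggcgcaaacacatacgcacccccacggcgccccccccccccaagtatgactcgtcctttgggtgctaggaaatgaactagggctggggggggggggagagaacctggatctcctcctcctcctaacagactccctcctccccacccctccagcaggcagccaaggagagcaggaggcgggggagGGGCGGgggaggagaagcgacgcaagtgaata
Lef1, start site 3: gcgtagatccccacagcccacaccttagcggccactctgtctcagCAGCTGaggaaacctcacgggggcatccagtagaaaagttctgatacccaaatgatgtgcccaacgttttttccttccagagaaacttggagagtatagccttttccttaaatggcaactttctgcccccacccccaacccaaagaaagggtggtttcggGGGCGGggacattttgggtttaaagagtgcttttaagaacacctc

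In the Myb sequence the capitals mark 3 GC boxes (GGGCGG, read here on the other strand as its reverse complement), at -182, -158 and -154 from the start site, of which the last 2 share bases. In the Sox4 sequence they mark 4 CCAAT boxes, at -171, -104, -47 and -8, and an E box with the letters CAGCTG at -211. The first Lef1 start site has 1 GC box at -32, and the third has 1 GC box at -45 and an E box CAGCTG at -205. Over 300 bases around each of the 32851 promoters of the table (250 before and 50 after the start), a GC box was held by 35.7%, a CCAAT box by 37.4% and CAGCTG by 16.3%. Within the 50 bases after the start, which are not printed, Myb also held the FOXO letters TGTTTAC, found in 3.65% of promoters, and the second Lef1 start site the E box CAGGTG, found in 20.2%. The fourth Lef1 start site held a TATA box (TATAAA, 13.6% of promoters) at -231. The Myb promoter was 75.0% G and C, above 96.4% of the promoters in the table, and that of Sox4 was near their median of 52.7%. For Lef1 the share was 67.3% at the first and second start sites, 51.7% at the third and 43.7% at the fourth.

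The other motifs searched on both strands had no match in the 6 promoters of these genes. They were EBF (CCCNNGGG), the octamer (ATGCAAAT), PU.1 (GAGGAAGT), ETS (CCGGAAG), TCF/LEF (TTCAAAG), SOX (ACAATGG), MYB (TAACGG, and separately CAACTG, which is also an E box form), NF-kB (GGGANTTCC), AP-1 (TGANTCA), RUNX (TGTGGT) and CRE (TGACGTCA). Between 1.68% and 16.8% of all promoters in the table held each of them. A match is only a match of letters, and its absence says only that the letters are not in these windows.

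Cd93, Cd24a and Sox4 were open at a gene end in all 6 libraries, while the calls at Myb and Lef1 were fewer in DTx. In the deposited lists the peak at Myb was called in DTx in 2 of 3 libraries and in untreated mice in 3 of 3, and that at Lef1 in DTx in 0 of 3 and in untreated mice in 2 of 3. Among equal-length lists the Myb peak was in 0 of 3 from DTx and 3 of 3 from untreated mice, and Lef1 was as before. Thus a gene-end peak stood in all 6 deposited lists at 3 of the 5 genes, against 49.2% of all genes, and the same count held in the equal-length lists, against 46.5%. A gene-end peak in 2 or 3 more untreated than DTx libraries occurred at 1 of the 5 genes in the deposited lists, where it occurred at 0.178% of all genes. In the equal-length lists it occurred at 2 of the 5, against 1.58% of all genes. The opposite, 2 or 3 more DTx libraries, occurred at 0 of the 5, against 0.896% of all genes in the deposited and 0.334% in the equal-length lists. Per library, 3, 4 and 4 of the 5 genes had a gene-end peak in the deposited DTx lists, where 51.9%, 56.1% and 56.9% of all genes had one. In the untreated lists 5, 4 and 5 of them had one, against 51.1%, 53.3% and 57.0% of all genes. With a gene end of 2 kb in place of 1 kb, every equal-length list of both groups had a peak at all 5 genes, and 50.1% of all genes had one in all 6 lists. In the DTx lists the Myb peak within 2 kb was not over the start site but in the region inside the gene next to it, which is described with Myb.

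**Figure D1:**
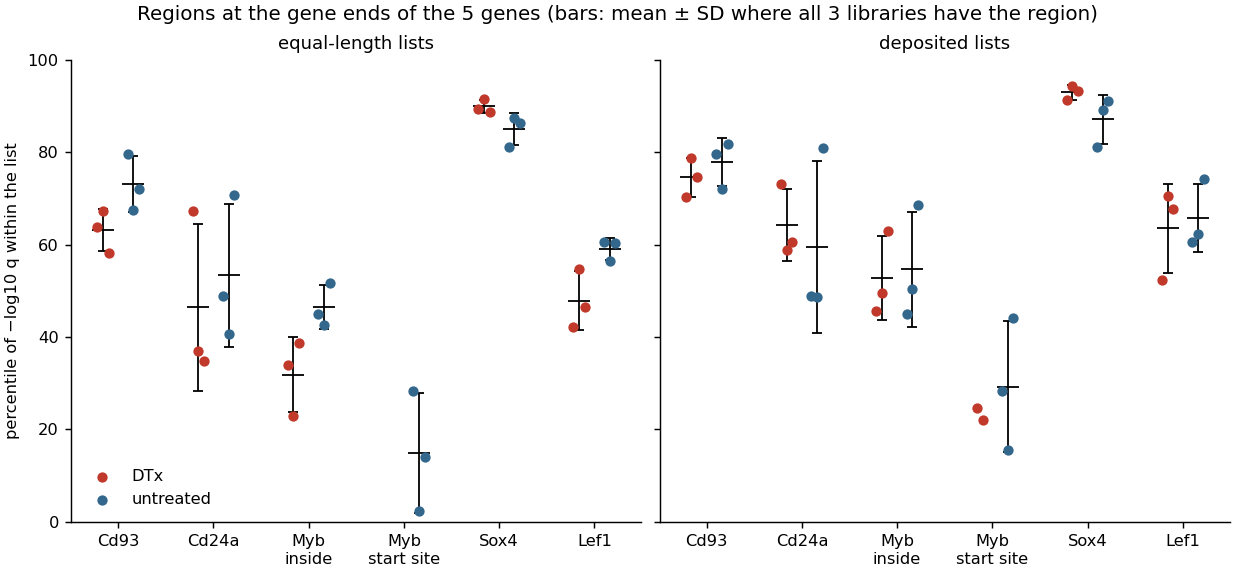
Percentile of −log10 q of the regions at the gene ends of the 5 genes, with 1 point per library, DTx left of untreated, in equal-length and deposited lists. In the equal-length lists the Sox4 points of DTx lie at 88.8 to 91.6, all above the untreated ones at 81.1 to 87.5, and the Myb start site has no DTx point.

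Ordered by strength over the deposited lists, the Sox4 gene-end region came first, at the 90.1st percentile ± 4.77 (SD over 6 libraries). Cd93 followed at 76.2 ± 4.59, then the region behind the Lef1 start sites at 64.6 ± 7.80, Cd24a at 61.8 ± 13.0, and the Myb start site, which 1 DTx list lacked. Sox4 ranked above Cd93 in 6 of 6 libraries and Cd93 above Lef1 in 6 of 6. Lef1 ranked above Cd24a in 4 of 6, so these neighbours did not differ beyond their spread. Cd24a ranked above the Myb start site in 5 of the 5 libraries that had both.

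**Figure D2:**
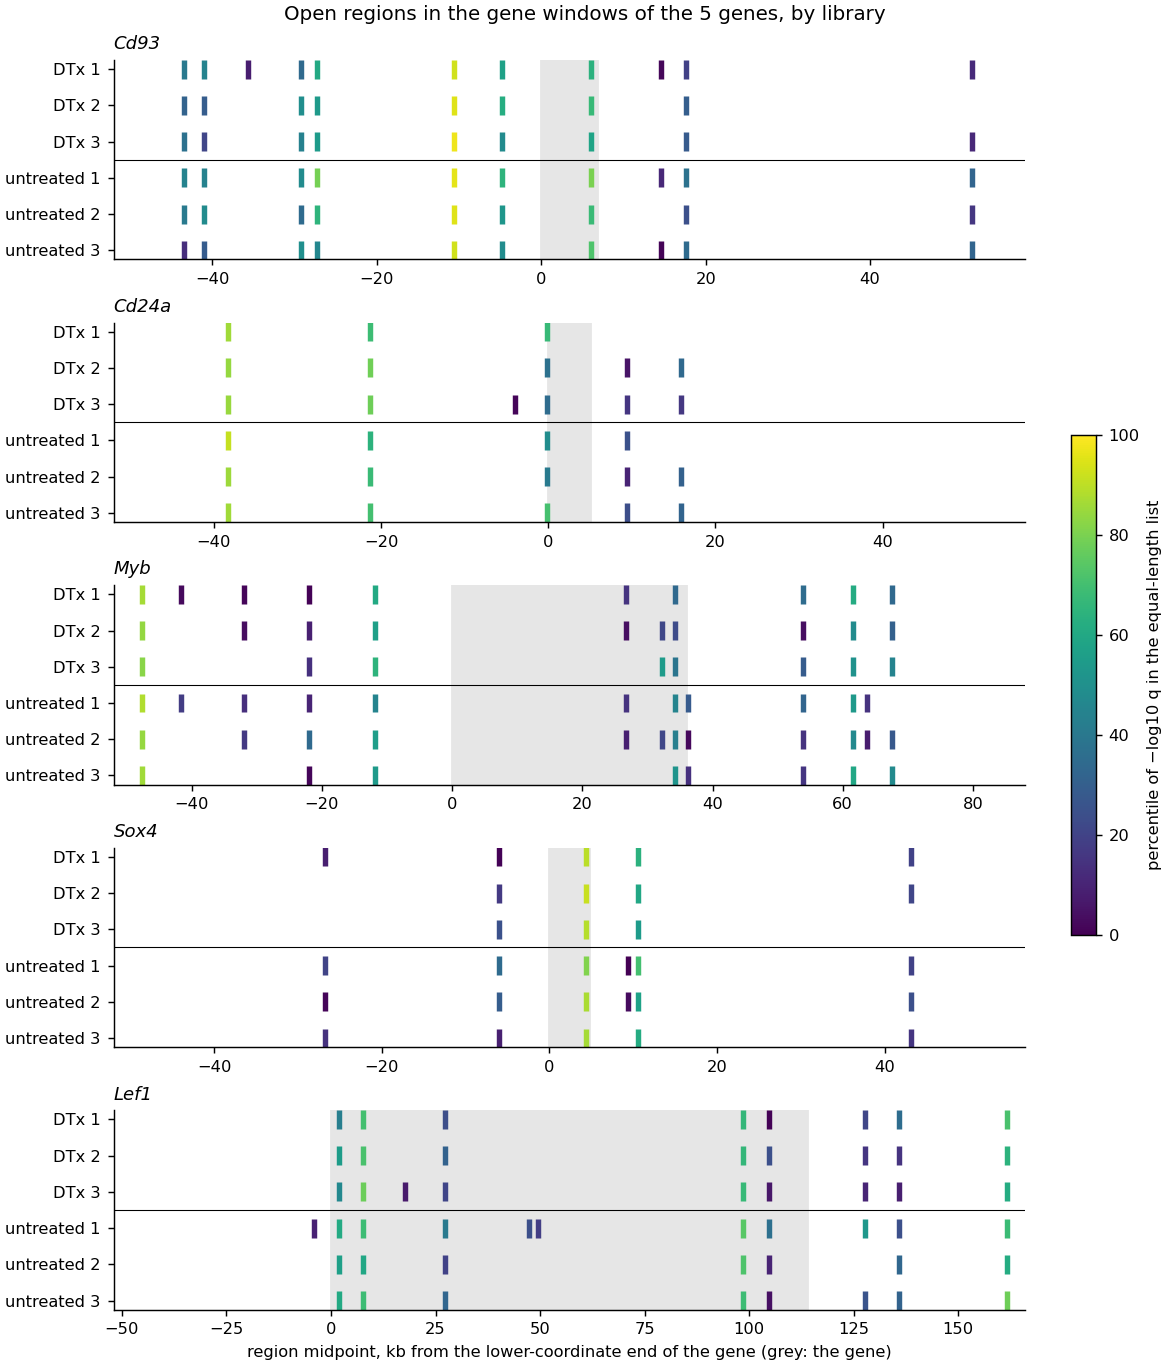
Open regions in the gene windows of the 5 genes. The x axis gives the midpoint of a region in kb from the lower-coordinate end of the gene, each row is a library with the DTx rows above the untreated ones, and colour is the percentile of −log10 q in the equal-length list. Most marks recur in all 6 rows, and the strongest, at Cd93, lies 10.2 kb outside the gene.

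Together the 5 gene windows, each gene with 50 kb on either side, held 69 of the 70174 regions that the merged lists make. Of these, 6 lay at a gene end of their own gene, 15 inside it, 9 at or in another gene and 39 between genes. Of the 69, 37 (53.6%) were in all 6 deposited lists, against 44.1% of all regions. In the equal-length lists 27 (39.1%) were, against 37.3%. The outermost regions kept lay between 38.4 and 47.7 kb from their genes by midpoint, and the nearest ones left out between 52.9 and 62.9 kb. No region of the 69 was called in every DTx library and in no untreated one, in either kind of list. Over all regions that share was 0.705% in the deposited and 0.255% in the equal-length lists. No region was called in every deposited untreated list and in no DTx list, where the share over all regions was 0.0242%. In the equal-length lists 1 region was, the Myb start site, against 0.402% of all regions. Of the 27 regions in all 6 equal-length lists, the percentiles of the groups did not overlap in 7. They were higher in DTx at 3, against 3.27% of all such regions, and lower in DTx at 4, against 5.72%.

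Cd93 (chr2:148436651-148443535) had 13 regions in its window, 10 of them called in all 6 deposited lists. The region at its higher-coordinate gene end, chr2:148441692-148443772, had equal-length percentiles of 63.9, 67.4 and 58.2 in DTx and 79.7, 67.6 and 72.1 in untreated libraries. Every DTx value was below every untreated one, but DTx replicate 2 and untreated replicate 2 almost met. Over the deposited lists the groups overlapped, with a mean of 74.6 ± 4.22 in DTx and 77.9 ± 5.18 in untreated libraries (SD, n = 3 each). The strongest region of the window was not at the gene end. It lay 10.2 kb outside the lower-coordinate end, at chr2:148425548-148426452, between Cd93 and its neighbour Thbd, which encodes thrombomodulin of the same lectin family. Its equal-length percentiles were 92.7, 95.2 and 97.5 in DTx and 96.0, 95.0 and 93.0 in untreated libraries, so the groups overlapped. Its width was also even, 804 to 894 bp in DTx and 799 to 850 bp in untreated libraries. A region inside Cd93, chr2:148440023-148440665, was called in 3 DTx and 2 untreated deposited lists and in no equal-length list, so it was weak in both groups.

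Cd24a (chr10:43579169-43584265) had 7 regions in its window, 4 of them in all 6 deposited lists. Its gene-end region, chr10:43577783-43580160, covered the lower-coordinate end. It stood out by its width, with peaks of 2124, 2257 and 2352 bp in DTx and 1554, 2133 and 2369 bp in untreated libraries. By width these peaks were at or above percentile 97.4 in each of their lists, and the groups overlapped. Its strength in the equal-length lists was 67.3, 37.0 and 34.9 in DTx and 48.8, 40.7 and 70.7 in untreated libraries, as percentiles. The highest value in each group came from its narrow-mode list, DTx replicate 1 and untreated replicate 3. The region of highest percentile in the window, chr10:43540501-43541305, lay at the gene end of Mtres1, 37.9 kb away, at the 84.2nd to 85.8th percentile in DTx and the 85.5th to 91.2nd in untreated libraries. Another, chr10:43557528-43558286, lay between genes, 20.9 kb outside Cd24a. Its percentiles were 68.5, 78.2 and 77.9 in DTx and 64.4, 67.8 and 69.9 in untreated libraries, with DTx replicate 1 within the untreated range.

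Myb (chr10:21124930-21160984, minus strand) had 23 regions in its window, the most of the 5 genes, and 10 of them were in all 6 deposited lists. The region over its start site, chr10:21160708-21161705, contains the Myb sequence printed above. It was weak in every list that had it. In the deposited lists it stood at the 24.6th percentile in DTx replicate 2, the 21.9th in DTx replicate 3 and the 28.2nd, 15.5th and 44.0th in untreated replicates 1 to 3, and DTx replicate 1 had no peak there. The DTx values thus lay within the untreated range. The equal-length limit left out peaks below the 34.7th percentile of DTx replicate 2 and the 39.6th of DTx replicate 3, below the 13.5th of untreated replicate 2, below the 34.9th of untreated replicate 3 and none of untreated replicate 1. In DTx replicates 2 and 3 the missing equal-length call thus rests on where that limit fell in lists of different length. The start site itself, at 21160984, lay under a peak in 1 of 3 DTx and 3 of 3 untreated deposited lists. In DTx replicate 3 the peak began 4 bp upstream of it.

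Inside Myb, next to the start site, the region chr10:21158236-21160181 was called in all 6 libraries. Its equal-length percentiles were 33.9, 22.9 and 38.7 in DTx and 45.0, 42.6 and 51.7 in untreated libraries, each DTx value below each untreated one. Beyond the other end of the gene, 11.5 kb outside it, the region chr10:21112739-21113468 went the other way, at 60.3, 56.5 and 64.5 in DTx and 44.9, 55.8 and 54.2 in untreated libraries. In the deposited lists the groups overlapped at both regions. The one inside Myb had 45.6, 49.6 and 63.0 in DTx and 45.0, 50.4 and 68.6 in untreated libraries. The one outside had 67.3, 71.6 and 78.5 in DTx and 44.9, 61.8 and 70.2 in untreated libraries. In width, the region chr10:21151239-21152129 inside Myb was wider in every DTx library (500, 552 and 891 bp) than in any untreated one (318, 369 and 488 bp). The region chr10:21187951-21189255, 27.0 kb upstream of the start, had less covered width in DTx. It had 270, 262 and 654 bp there, against 1238, 1170 and 783 bp in untreated libraries. The values of DTx replicate 3 and untreated replicate 3 are each summed over 2 separate peaks. The strongest region of the window, chr10:21076811-21077822, lay inside the neighbouring gene Ahi1, 47.1 kb from Myb, at the 82.1st to 86.4th percentile in DTx and the 84.3rd to 88.0th in untreated libraries.

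**Figure D3:**
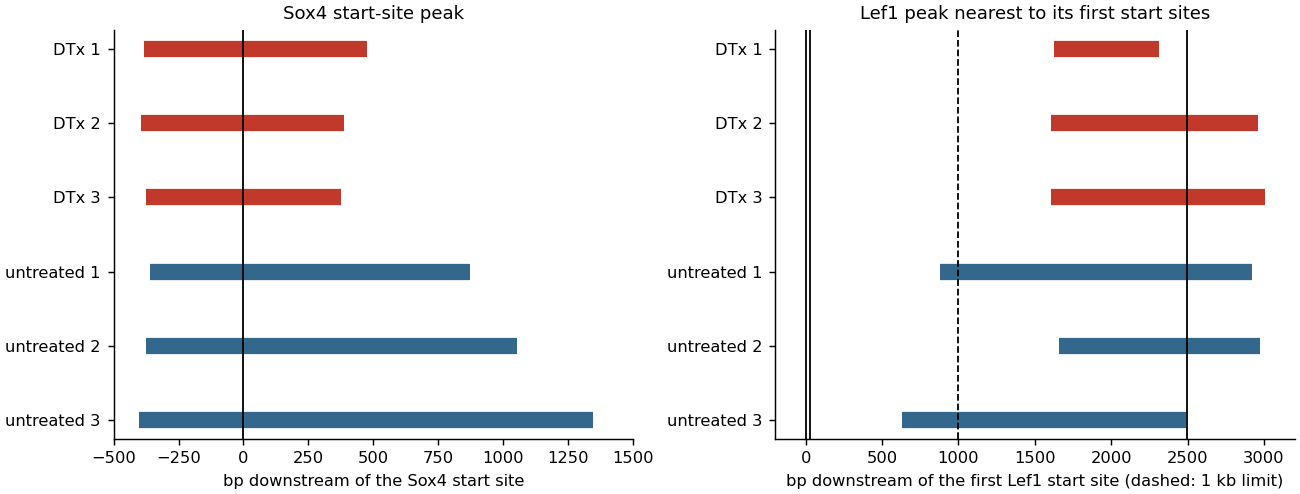
Extent of the Sox4 start-site peak and of the Lef1 peak nearest to its first start sites, in bp downstream of the start, with the 3 DTx libraries above the 3 untreated ones. Solid vertical lines mark annotated start sites and the dashed line the 1 kb limit. The Sox4 peak ended 374 to 477 bp downstream in DTx and 873 to 1345 bp downstream in untreated libraries, while the Lef1 peak reached inside the limit in 2 untreated libraries.

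Sox4 (chr13:28948919-28953699, minus strand), a gene with a short body, had 8 regions in its window, 5 of them in all 6 deposited lists. Its start-site peak, chr13:28952354-28954102 as merged over the libraries, holds the whole Sox4 sequence printed above. It was higher in rank but narrower in DTx. The equal-length percentiles were 89.5, 91.6 and 88.8 in DTx and 81.1, 87.5 and 86.4 in untreated libraries, with no overlap. In the deposited lists they were 91.3, 94.5 and 93.3 in DTx and 81.1, 89.2 and 91.2 in untreated libraries, again with no overlap, though DTx replicate 1 and untreated replicate 3 were close. The authors' fold enrichment at the peak was 12.1 in the narrow list of DTx and 10.7 in that of untreated libraries. In the broad lists it was 5.88 and 5.74 in DTx and 4.02 and 5.32 in untreated libraries.

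The width of the Sox4 peak was 859, 781 and 751 bp in DTx and 1235, 1430 and 1749 bp in untreated libraries. The upstream edge was at nearly the same place in all 6, 376 to 394 bp before the start site in DTx and 361 to 403 bp in untreated libraries. The downstream edge differed. It lay 477, 386 and 374 bp into the gene in DTx and 873, 1053 and 1345 bp into it in untreated libraries. The mean width was 0.54 times that of untreated libraries, while the median over the 30954 regions in all 6 deposited lists was 1.01. The peak was narrower in DTx both in the broad and in the narrow lists. With width summed over the peaks of a region, 1.37% of those 30954 regions were narrower and 2.75% wider in every DTx than in any untreated library. In the windows of the 5 genes, 2 of 37 such regions were narrower, at Sox4 and upstream of Myb, and 1 was wider, inside Myb. The comparison of widths was chosen after the values were seen. A peak's width also depends on depth and calling mode, and depth is not known here. Another region, chr13:28958894-28959999, lay 5.20 kb upstream of Sox4 in all 6 libraries, at the 54.7th to 64.0th percentile in DTx and the 57.7th to 70.1st in untreated libraries.

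Lef1 (chr3:131110297-131224357, plus strand) had 18 regions in its window, 8 of them in all 6 deposited lists and 8 inside the gene away from its ends. The first 2 annotated start sites, at 131110297 and 131110323, lay under no peak in any library. The first Lef1 sequence printed above therefore lies outside the called peaks. The nearest peak began downstream of the first start site in every library, 1627, 1603 and 1606 bp away in DTx and 881, 1658 and 628 bp away in untreated libraries. The 1 kb limit fell between 881 and 1603 bp. The call at Lef1 thus came from untreated replicates 1 and 3, whose peaks reached inside the limit, while the DTx peaks stopped 603 to 627 bp short of it. Untreated replicate 2 had its edge where the DTx libraries had theirs. The region itself, chr3:131110925-131113301, was called in all 6 libraries. The third annotated start site, at 131112791, is 2494 bp downstream of the first and lay under a peak in DTx in 2 of 3 libraries and in untreated mice in 2 of 3. The printed sequence before it lies in this merged region.

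At this first Lef1 region the equal-length percentiles were 42.2, 54.8 and 46.6 in DTx and 60.6, 56.4 and 60.3 in untreated libraries, with no overlap. Their deposited percentiles overlapped, at 52.4, 70.5 and 67.7 in DTx and 60.6, 62.3 and 74.1 in untreated libraries. The next region in the gene, chr3:131117540-131118422, was higher in DTx, at 70.0, 71.1 and 77.4, against 68.5, 59.6 and 68.6 in untreated libraries. Near the far end of the gene, chr3:131208308-131209148 was lower in DTx, at 66.3, 66.3 and 67.5, against 73.9, 72.1 and 68.4 in untreated libraries. In the deposited lists the groups overlapped at both of these regions. The former had 75.3, 81.2 and 86.3 in DTx and 68.5, 65.0 and 79.6 in untreated libraries. The latter had 72.3, 78.0 and 80.4 in DTx and 73.9, 75.9 and 79.5 in untreated libraries. Regions of 1 gene thus differed in both directions, but only in the equal-length lists. Around the fourth start site, at 131156294, no peak came nearer than 1076 bp.

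Over whole windows the groups were close. In the equal-length lists the 5 windows held 36.7 ± 2.89 peaks per library in DTx and 39.3 ± 3.51 in untreated libraries (SD, n = 3 each), a change of -6.78%, where the mean over all genes changed by 2.01%. The deposited lists held 55.3 ± 6.43 peaks in DTx and 50.7 ± 9.29 in untreated libraries, a change of 9.21%, where the mean over all genes changed by 16.6%. By group means the change at the 5 genes was thus below that of all genes in both kinds of list, but the group differences were smaller than the SDs. It also depended on the calling mode. In the narrow equal-length lists the 5 windows held 40 peaks in DTx and 36 in untreated libraries, with all-gene means of 4.03 and 4.25. In the broad ones they held 35 and 35 in DTx and 43 and 39 in untreated libraries, with all-gene means of 4.22, 4.30, 3.91 and 4.14. Peaks per gene overlapped between the groups at all 5 genes. Over the genes with a peak in the equal-length lists, 1.36% were higher in every DTx library than in any untreated one and 0.808% were lower.

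**Figure D4:**
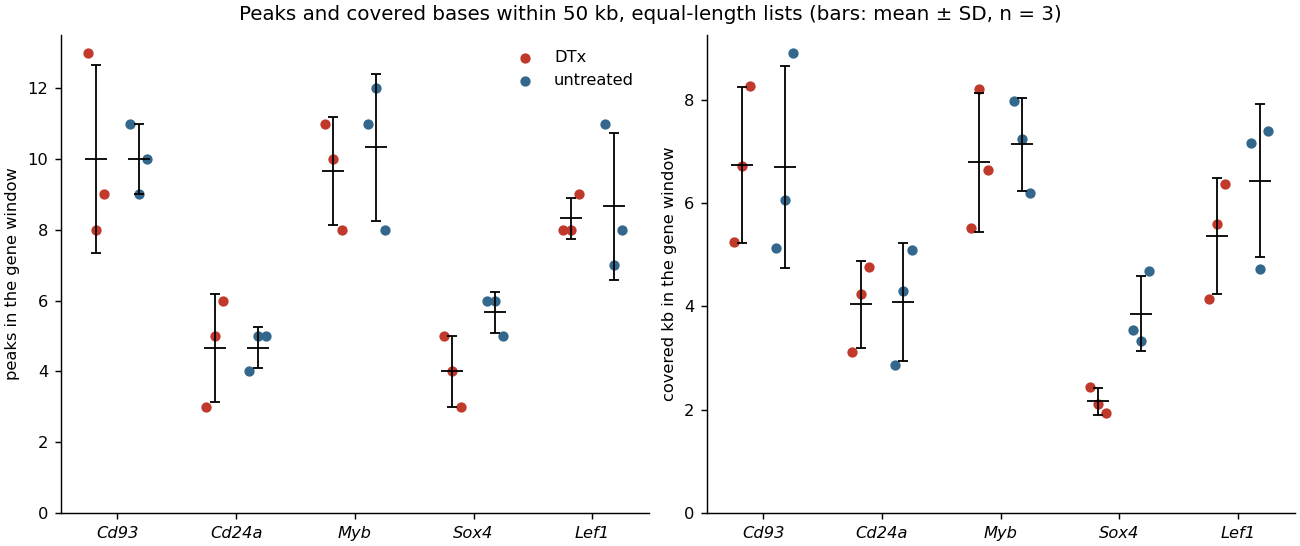
Peaks and covered kb in the window of each gene in the equal-length lists, with 1 point per library, DTx left of untreated, and bars for the mean and SD of 3 libraries. Sox4 is the gene whose covered bases do not overlap, at 1930 to 2442 bp in DTx and 3336 to 4682 bp in untreated libraries.

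Bases covered by peaks in the Sox4 window were 2442, 2100 and 1930 bp in DTx and 3548, 3336 and 4682 bp in untreated libraries, so every DTx library was lower. The start-site peak alone covered 797 bp on average in DTx and 1471 bp in untreated libraries. Deposited lists gave groups that overlapped, at 2872, 2923 and 4320 bp in DTx and 3548, 3336 and 5385 bp in untreated libraries. Covered bases of Lef1 were 4146, 5590 and 6361 bp in DTx and 7166, 4729 and 7400 bp in untreated libraries, with overlap. Cd93 averaged 6738 bp in DTx and 6698 bp in untreated libraries, Cd24a 4038 bp in DTx and 4083 bp in untreated libraries, and Myb 6786 bp in DTx and 7132 bp in untreated libraries. With 20 ways to relabel the libraries, the lowest p that a two-sided exact permutation test can give is 0.1, and it gave 0.1 for Sox4, 0.4 for Lef1, 0.8 for Myb and 0.9 for Cd93 and Cd24a. After Benjamini-Hochberg adjustment over all 17591 genes each was 1, and since these bases come from the peaks that described the genes beforehand, the test is no independent support. Non-overlap lower in DTx occurred at 1 of the 5 genes, against 2.64% of all genes, and higher in DTx at 0, against 1.3%.

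Genes whose covered bases over the 6 libraries ran most like those of a member were named by Pearson's r, which is a description over 6 points that share list length and calling mode. For Sox4 they were Spry2 (r = 0.989), Sccpdh (0.988) and Epcam (0.988), and for Lef1 they were Dnm3 (0.996), Dazl (0.987) and Dclk2 (0.984). Cd93 ran most like Rhobtb2 (0.998), Snrnp27 (0.998) and Il17c (0.998). Cd24a ran most like Mcfd2 (1.000), Ogfod2 (0.999) and Arl6ip4 (0.999), the last 2 with the same covered bases in every library. For Myb the values were lower, with Rnase2b at 0.975, Zfp948 at 0.974 and Adamts6 at 0.971.

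Among companion genes, gene-end peaks recurred in both groups. Over all genes, 49.2% had one in all 6 deposited lists and 46.5% in all 6 equal-length lists. Such peaks stood in all 6 deposited lists at 12 of 16 surface markers of B cell maturation, among them Cr2 and Fcer2a, the receptors CD21 and CD23 that rise as transitional cells mature. Cd38, a surface ectoenzyme, had a gene-end peak in 3 of 3 deposited lists of each group, but in 0 of 3 DTx and 3 of 3 untreated equal-length lists. Of 13 genes of the TCF/LEF and Wnt list, 10 had a peak in all 6 deposited lists, including Tcf7l1 and Tcf7l2. Tcf7, the relative of Lef1 known from T cells, had a deposited peak in DTx in 2 of 3 libraries and in untreated mice in 3 of 3, and an equal-length one in 0 DTx libraries and 1 untreated library. All 5 genes of the MYB family and its partners, with Mybl1, Mybl2 and Mybbp1a, had one in every list, unlike Myb itself.

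Of 18 other SOX genes, 12 had a gene-end peak in no deposited list, with Sox1, Sox2 and Sox3 among them. In all 6 deposited lists 5 of the 18 had one, against 49.2% of all genes. Sox13 was called in DTx in 2 of 3 libraries and in untreated mice in 0 of 3, in both kinds of list. A gene-end peak in 2 or 3 more DTx libraries occurred at 0.896% of all genes in the deposited and 0.334% in the equal-length lists. In the CD93 family, Thbd, which lies in the Cd93 window, had a peak in every list, Clec14a in none, and Cd248 in 2 of 3 deposited lists of each group. Siglecg, which encodes a receptor for CD24, had a peak in every list, as did Lyn and Ptpn6, which encode a kinase and a phosphatase of inhibitory signalling. Of 18 progenitor and pre-B genes, 10 had one in all 6 deposited lists, against 49.2% of all genes, and 5 had one in none. Rag1, whose product cuts DNA in V(D)J recombination, was called in 1 DTx library and 0 untreated ones, its partner Rag2 in 1 of 3 of each group, and Dntt, encoding terminal transferase, in none.

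Lef1, Myb and Cd93 are also used by other blood cells or vessels, so the markers of those cells stand beside them. Each deposited list had a gene-end peak at 51.1% to 57.0% of all genes. Of 10 T cell genes, 1 to 5 had a gene-end peak in the deposited DTx lists and 1 to 4 in the untreated ones, and 5 had none in any list. Cd3d had one in all 6, Cd3g in 1 DTx list, and Cd4 in 0 of 3 DTx and 2 of 3 untreated equal-length lists. Of 7 endothelial genes, 0 to 2 had one in DTx and 0 to 3 in untreated deposited lists, and of 8 myeloid genes 2 to 3 in each group, with Csf1r in 1 of 3 DTx and 3 of 3 untreated libraries. The counts were 1 to 2 of 5 for natural killer genes in both groups, 3 of 5 for plasmacytoid dendritic cell genes in every deposited list, and 3 of 6 erythroid genes in DTx and 2 to 3 in untreated libraries. Cd4 and Csf1r thus had 2 more untreated libraries, Cd4 in the equal-length and Csf1r in the deposited lists. A lead of 2 or 3 untreated libraries occurred at 1.58% of all genes in the equal-length and 0.178% in the deposited lists. The part of these other cell types in the peaks of the 5 genes was not tested.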

How the data were processed

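Open chromatin was measured in 3 DTx and 3 untreated libraries, grouped by the labels. The submitters' processing notes name Trim Galore 0.4.3, Bowtie2 2.3.2, MACS2 2.1.1 and the build mm10, with no role or setting. For each library the authors deposited 1 list of peaks. Pileup, a coverage signal, and fold enrichment, a ratio over background, are the authors' values per the file headers. The deposited −log10 p-value and −log10 q-value columns have damaged headers and were identified from their order and values. Nothing in the sources used here gives a Tn5 shift, duplicate removal or read totals, so depth is unknown.

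Mitochondrial peaks were left out. Peaks were merged over the 6 lists wherever they shared 1 bp. Covered bases, and peaks by midpoint, were counted in each gene with 50 kb on either side. Gene positions and promoters are RefSeq's on GRCm38.p6, the same build, with coordinates 1-based. Group-wise values are described. Covered bases were also given an exact permutation test, and the code was tested on simulated data. The 5 genes, the 14 gene lists, the motifs and the tests were chosen with earlier results of these data known. Named companion genes are the first 3 of each list and any whose count of libraries differs by 2 or more, except 1 gene that is not reported here. Genes alike are the 3 of highest r, at least 1 Mb away. Alternatives were the deposited lists, other rankings, a −log10 q of at least 5, leaving out each library, single calling modes, other windows and gene-end limits, stricter merging and a replicate block. Python 3.11.15, NumPy 2.4.6, pandas 2.3.3 and matplotlib 3.10.9 were used.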

Additional observations from a re-analysis of the deposited data

How the results depend on the processing

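Differences are DTx minus untreated libraries. Summed over the 5 windows, peaks differed by -2.67 in the equal-length lists, but by 4.67 in the deposited lists, by 4.67 with only peaks of −log10 q of at least 5, and by 4 in the narrow-mode lists alone, and by -4.33 to -0.833 when each library was left out. Genes with a gene-end peak differed by -1.67, by -2.00 to -1.50 when each library was left out, by 0 with a gene end of 2 kb, and by -1 in the deposited lists, ranked by pileup, with −log10 q of at least 5, with a gene end of 500 bp, and with more of the peak required inside the limit. Regions only in DTx lists numbered 0, but 4 in the narrow-mode lists alone, and 0 when each library was left out. Regions only in untreated lists numbered 1, but 0 in the deposited lists and with −log10 q of at least 5, 4 in the broad-mode lists alone, 3 in the narrow-mode lists alone, and 1 to 3 when each library was left out, with 2 without DTx replicate 1 and 3 without untreated replicate 3.

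Covered bases at Sox4 were lower in DTx under all 15 alternatives, with -1958 to -1285 bp when each library was left out, but only -718.0 bp in the deposited lists and -522.3 bp with −log10 q of at least 5, where the groups overlapped. Leaving out libraries, single modes and the replicate block could not change the direction, since the equal-length groups did not overlap. Within the deposited lists it did depend on the mode, with 179.5 bp in the broad-mode and -2513 bp in the narrow-mode lists. For the width of the Sox4 start-site peak 9 alternatives were added after the data were seen, all of them subsets or a block of the same widths. Every DTx width lay below every untreated one, so none of them could change the direction, and they show only its size. The differences were -792.5 to -535.5 bp when each library was left out, -566.5 bp in the broad-mode and -890.0 bp in the narrow-mode lists. Covered bases at Lef1 changed direction in 1 of 15 alternatives, to 28.0 bp in the broad-mode lists alone. Cd93 changed in 6 of 15, to -4.33 bp ranked by fold enrichment, -654.3 bp with a window of 100 kb, -3657 bp in the narrow-mode lists, and within -742.5 to 1139 bp when each library was left out. Cd24a changed in 7 of 15, to 198.0 bp in the deposited lists, 414.3 bp with −log10 q of at least 5, 157.7 bp with a window of 10 kb, 921.5 bp in the broad-mode lists, and within -657.8 to 460.2 bp when each library was left out. Myb changed in 3 of 15, to 993.0 bp with −log10 q of at least 5, and within -1052 to 288.0 bp when each library was left out. The causes of these changes were not tested.

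The labels give both groups replicate numbers 1 to 3, but do not say that a number marks a shared batch. Deviations of covered bases from the group means correlated at 0.426, 0.0512 and 0.273 between same-numbered libraries. DTx replicates 1 and 3 correlated best with their own number, replicate 3 only narrowly, at 0.261 with untreated replicate 2. DTx replicate 2 correlated best with untreated replicate 3, at 0.0714. These values do not settle whether the numbers pair the libraries, and they were not taken to do so. With a replicate block, the smallest value of the exact sign-flip p is 0.25. It was 0.25 for Sox4 covered bases (-1698 bp) and for the width of its start-site peak (-674.3 bp). Both had to be 0.25, since every DTx value lay below every untreated one, and the width was chosen after its values were seen. The sign-flip p was 0.50 for Lef1 (-1066 bp), 0.75 for Cd93 (40.0 bp) and Cd24a (-45.7 bp) and 1.00 for Myb (-346.3 bp). Read totals are unknown, so the depth behind a missing peak, such as that at Myb in DTx replicate 1, cannot be given.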
